A study of Mus musculus with 4 samples.

Results

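The myeloid C-type lectin receptors described here are 10 genes, Clec4e, Clec4d, Clec4n, Clec7a, Clec5a, Clec12a, Clec10a, Clec4a1, Clec4a2 and Clec4a3, out of 21878 genes listed in the count table. They were taken by gene symbol, as a set of activating and inhibitory lectins, and the set was chosen because Clec4e was seen to be higher in the libraries labelled anti-Act1. The values that chose the set are therefore given as a description and without p-values. Whether a member passed the call rule of the fit over all genes (edgeR, adjusted p under 0.05) is stated as description too. Nothing is read from it as support, since the set was chosen on this contrast. The libraries were made from bone-marrow-derived macrophages of C57BL/6 mice, aged 8 weeks by the labels, that had been cocultured for 48 h with MC38, a mouse colon adenocarcinoma line. The groups were 2 libraries of genotype WT and 2 of genotype anti-Act1, and both had been cocultured, so no library shows macrophages without MC38. Anti-Act1 mice carry a knockdown of Act1, the adaptor of interleukin-17 receptor signalling encoded by Traf3ip2, that is described as specific to macrophages; the promoter that drives it is not given in the sources used here. An insert kept the MC38 cells apart from the macrophages, and the libraries of a group are described as biological replicates.

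Myeloid C-type lectin receptors are surface proteins with which macrophages, dendritic cells and neutrophils bind sugars and lipids of microbes and products of dying cells. The activating receptors couple, directly or through the adaptor chains FcRγ (Fcer1g) and DAP12 (Tyrobp), to the kinase Syk, and from there through Card9, Bcl10 and Malt1 to NF-κB and cytokine genes. The inhibitory receptors carry a tyrosine motif in their tail that recruits the phosphatases SHP-1 (Ptpn6) and SHP-2 (Ptpn11), which oppose the kinases. Mincle (Clec4e) is low in resting macrophages and is known to be induced by inflammatory stimuli.

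The labels were checked before the members. Traf3ip2 was not lower in the anti-Act1 libraries. It had 6.98 and 7.54 CPM (counts relative to the effective library size by TMM) in the WT libraries and 9.63 and 7.84 in the anti-Act1 libraries, a log2 fold change of 0.27 ± 0.12 (SE; edgeR quasi-likelihood test, adjusted p = 0.117). Without anti-Act1 replicate 2 the difference was 0.41 and passed the threshold as higher. The study describes Act1 as reduced in macrophages of these mice, by a measurement not analysed here. Whether the counted part of Traf3ip2 would show the knockdown is not given, so the groups are called by their labels throughout. The Y-linked genes Ddx3y, Uty and Kdm5d had 0 counts in both anti-Act1 libraries and Eif2s3y had 1 and 0, while the 4 genes had means of 35.3 to 92.9 CPM in the WT libraries, so the sex of the donors and the label cannot be told apart in any difference below. Library totals ran from 55435063 to 75062945 counts. The macrophage markers were abundant, with Csf1r at 2251 to 2442 CPM and Adgre1 at 800 to 891 CPM. Of 8 such markers 2, Itgam and Mertk, were lower in the anti-Act1 libraries (edgeR, adjusted p under 0.05), and Cd14 was higher. Over all 12494 genes tested 10.9% were called higher and 9.76% lower. Cd14 lost the call without WT replicate 2 or anti-Act1 replicate 1, with limma on the deposited FPKM and with the replicate number as a block. Markers of other cells were low in every library. Those of monocytes summed to 8.50 to 10.6 CPM, of dendritic cells to 4.58 to 5.59 CPM, of neutrophils apart from Mmp8 to 6.50 to 7.40 CPM, of epithelium to at most 0.898 CPM, of fibroblasts to at most 0.824 CPM, of lymphoid cells to at most 0.540 CPM and of mast cells to at most 0.198 CPM. Mmp8 alone had 519 to 541 CPM. Within these low levels 1 of 4 monocyte markers was higher and 1 lower, beside the same 10.9% and 9.76% of all genes tested. Of 7 neutrophil markers tested 1 was higher and 3 were lower, beside the same shares. Among the lower ones, Ngp and Retnlg lost the call without anti-Act1 replicate 2, as did the lower monocyte marker, Ccr2. Their part in the results below was not tested. Krt8, Krt18 and Cldn4 were at 0 in all libraries. In these bulk samples, fewer cells of a type and less RNA per cell cannot be told apart.

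Of the 10 members 9 lie on chromosome 6 and Clec10a lies on chromosome 11. The start regions of the 3 members on which the comparison turns are shown, as the 250 bases before the annotated start in RefSeq (GRCm38.p6), 5′ to 3′ on the strand of the gene. They are Clec4e and Clec4d, close neighbours with unequal differences, and Clec7a, the member with the largest difference in the other direction. Clec4e is shown at chr6:123289872-123290121 on the minus strand, Clec4d at chr6:123261857-123262106 on the plus strand and Clec7a at chr6:129472786-129473035 on the minus strand. Capitals mark matches to the motifs that were searched.
Clec4e: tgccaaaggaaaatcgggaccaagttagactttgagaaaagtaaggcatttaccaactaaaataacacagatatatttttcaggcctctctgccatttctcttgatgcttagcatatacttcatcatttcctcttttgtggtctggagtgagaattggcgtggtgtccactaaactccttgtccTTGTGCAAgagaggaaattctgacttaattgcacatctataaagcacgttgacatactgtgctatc
Clec4d: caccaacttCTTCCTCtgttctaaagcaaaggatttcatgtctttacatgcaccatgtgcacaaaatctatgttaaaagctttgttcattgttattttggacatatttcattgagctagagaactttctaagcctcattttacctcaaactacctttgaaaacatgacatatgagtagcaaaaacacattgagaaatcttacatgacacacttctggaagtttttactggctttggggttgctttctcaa
Clec7a: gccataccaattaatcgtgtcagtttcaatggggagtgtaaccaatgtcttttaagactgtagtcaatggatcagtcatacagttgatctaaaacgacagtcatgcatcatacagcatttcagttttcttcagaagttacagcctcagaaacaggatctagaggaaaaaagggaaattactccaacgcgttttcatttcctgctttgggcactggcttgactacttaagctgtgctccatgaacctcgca
RefSeq gave such windows for 8 of the 10 members, and Clec4n and Clec10a had none. The Clec12a window precedes the start given in that table but lies inside the gene as RefSeq outlines it, which begins further upstream, so it is not the region before the first start of Clec12a and is not shown. The windows were searched on both strands for C/EBP (TTGCNNAA), AP-1 (TGANTCA), PU.1 (GAGGAAG), an interferon-response element (GAAANNGAA), a STAT motif (TTCNNNGAA) and the NF-kB consensus. Clec4e held a C/EBP match, TTGTGCAA read in the gene's direction, 66 to 59 bases before the start. Clec12a held another, and 9.56% of 32851 windows of the same length did so. The PU.1 letters were found in the windows of Clec4d, Clec5a, Clec12a and Clec4a1 and in 10.6% of all windows. Clec12a also held the AP-1 letters (6.75% of all windows) and Clec4a2 the STAT letters (7.02%). None of the 8 windows held the interferon-response letters or the NF-kB consensus, which were in 7.13% and 7.25% of all windows. The Clec7a window held none of the 6 motifs. A match is a description of these letters only, and so is the absence of a match.

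The levels of the members are compared per gene length, as the FPKM values that the authors deposited. Clec4d (MCL, a receptor for mycobacterial glycolipid that pairs with Mincle) was by far the most abundant. It had 1035 and 975 FPKM in the WT libraries and 1107 and 1131 FPKM in the anti-Act1 libraries, which was 54.3 to 60.1% of the summed FPKM of the 10 members. The β-glucan receptor Dectin-1 (Clec7a) followed at 214 and 220 FPKM in WT and 162 and 161 FPKM in anti-Act1. Over the 4 libraries the order of mean levels was Clec4d, Clec7a, Clec4a1, Clec12a, Clec4n, Clec4a2, Clec4e, Clec4a3, Clec10a and Clec5a. Clec4d exceeded Clec7a 5.61-fold, and Clec4a3 exceeded Clec10a 8.88-fold. The ranges over the 4 libraries overlapped between Clec7a and Clec4a1, Clec4a1 and Clec12a, Clec4n and Clec4a2, and Clec4e and Clec4a3. These neighbours were therefore not separated over the pooled libraries, although Clec7a was above Clec4a1 in each of the 4. Clec4a3 was above Clec4e in both WT libraries and below it in both anti-Act1 libraries, Clec4e being the gene that chose the set. Clec4n was above Clec4a2 in each WT library and below it in each anti-Act1 library. Clec10a, with 5.18 to 5.51 FPKM, and Clec5a, with 4.22 to 4.70 FPKM, were the lowest. All 10 passed the filter on low counts; the member with the fewest reads, Clec10a, had 436 to 604 counts per library. The plot of FPKM by library shows the largest ratio between the labels for Clec4e, the gene on which the set was chosen, while the difference of the means in FPKM was larger for Clec4d and Clec7a.

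**Figure D1:**
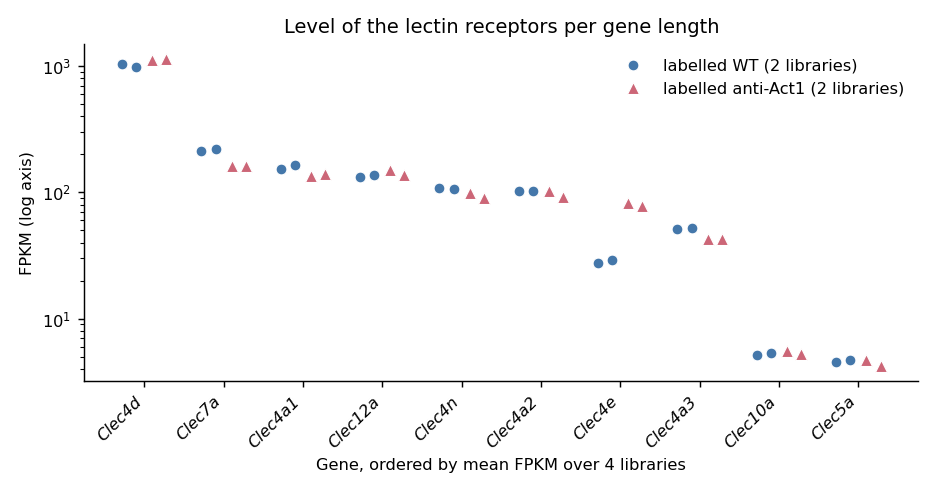
FPKM of the 10 lectin receptors on a log axis, 1 point per library, with circles for the 2 libraries labelled WT and triangles for the 2 labelled anti-Act1, ordered by the mean over the 4 libraries. Clec4d sits between 975 and 1131 FPKM, Clec10a and Clec5a lie between 4.22 and 5.51 FPKM, and Clec4e moves from 27.6 and 29.2 FPKM in WT to 83.1 and 77.8 FPKM in anti-Act1.

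The activating receptors did not share a direction. Clec4e (Mincle), which binds mycobacterial cord factor and the spliceosome protein SAP130 (Sf3b3) that dying cells release and signals through FcRγ, had 64.3 and 67.6 CPM in the WT libraries and 195 and 185 CPM in the anti-Act1 libraries. Both anti-Act1 libraries lay far above both WT libraries. The fold of the means was 2.88 and the log2 fold change was 1.53 ± 0.05 (SE), and over 13 other settings it ran from 1.47 to 1.57. It rested on 4157 and 5132 counts against 12062 and 10111 counts.

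Clec4d, its partner, had 1373 and 1287 CPM in WT and 1482 and 1533 CPM in anti-Act1. The groups did not overlap, but the gap between them was close to that between the WT libraries. The log2 fold change was 0.18 ± 0.05 (SE), and it did not pass the call rule without WT replicate 2 (0.14) or without anti-Act1 replicate 2 (0.16), nor with limma on either FPKM scale (0.16). Since both genes make subunits of a common receptor complex, their ratio is given too. The FPKM of Clec4d divided by that of Clec4e was 37.5 and 33.4 in the WT libraries and 13.3 and 14.5 in the anti-Act1 libraries. Clec4e is the gene that chose the set, so a ratio to it restates its rise in part.

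Dectin-1 (Clec7a), which recognises fungal β-glucan and binds Syk through its own tail, differed the other way. It had 456 and 467 CPM in WT and 349 and 350 CPM in anti-Act1, with libraries of a label nearly equal and no overlap. The log2 fold change was −0.40 ± 0.05 (SE), with −0.43 to −0.39 over the other settings. Set against Clec4e in FPKM, it was 7.76 and 7.56 times as high in the WT libraries and 1.95 and 2.07 times as high in the anti-Act1 libraries. This ratio also carries the rise of Clec4e that chose the set. The mean FPKM of Clec7a itself was 0.74 times as high in anti-Act1 as in WT.

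Dectin-2 (Clec4n), a receptor for fungal mannans that signals through FcRγ as Mincle does, had 128 and 124 CPM in WT and 117 and 109 CPM in anti-Act1. Both anti-Act1 libraries were below both WT libraries. The log2 fold change of −0.15 ± 0.05 (SE) no longer passed the call rule without WT replicate 1 (−0.13), anti-Act1 replicate 1 (−0.20) or anti-Act1 replicate 2 (−0.10), with the replicate block, or by DESeq2. Clec5a (MDL-1), which signals through DAP12 and DAP10, had 17.1 and 17.5 CPM in WT and 17.8 and 16.2 CPM in anti-Act1. Its groups overlapped, with a log2 fold change of −0.02 ± 0.08 (SE).

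The inhibitory receptors differed little. Clec12a (MICL), which binds uric acid crystals and restrains myeloid activation, had 228 and 235 CPM in WT and 262 and 244 CPM in anti-Act1. The groups did not overlap, and the log2 fold change was 0.13 ± 0.05 (SE). Clec4a2 (DCIR), whose tail holds the inhibitory motif, had 189 and 189 CPM in WT and 192 and 175 CPM in anti-Act1. The anti-Act1 libraries lay on either side of the WT libraries, with a log2 fold change of −0.04 ± 0.05 (SE).

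The other members are relatives of DCIR and a galactose-type lectin, to which neither an activating nor an inhibitory role was assigned here. Clec4a1 (DCIR4) had 237 and 252 CPM in WT and 211 and 220 CPM in anti-Act1. Its groups did not overlap, and its log2 fold change of −0.18 ± 0.05 (SE) did not pass the call rule without WT replicate 2 (−0.14) or anti-Act1 replicate 1 (−0.15). Clec4a3 (DCIR3) had 62.6 and 64.3 CPM in WT and 52.8 and 53.9 CPM in anti-Act1. It was lower in both anti-Act1 libraries, with a log2 fold change of −0.25 ± 0.06 (SE) that stayed between −0.28 and −0.23 over the other settings. Clec10a (MGL1), the galactose-type lectin, had 7.72 and 7.96 CPM in WT and 8.29 and 7.98 CPM in anti-Act1. These values barely separated, and the log2 fold change was 0.05 ± 0.12 (SE).

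Read together, 4 members were higher and 4 lower with no overlap between the labels, beside 28.4% and 28.7% of the 12494 genes tested. By the call rule of the fit over all genes (edgeR, adjusted p under 0.05), 2 members were higher, 4 were lower and 4 did not pass, beside 10.9% of all genes tested called higher, 9.76% called lower and 20.7% called in either direction. The set was chosen on this contrast, so nothing is read from these counts. The number called higher was 1 without WT replicate 2 or without anti-Act1 replicate 2, and the number called lower was 2 without anti-Act1 replicate 1. The median log2 fold change was −0.03 over the members and −0.00 over all genes tested. By role it was −0.02 for the 5 activating receptors, with a span from −0.40 to 1.53, 0.04 for the 2 inhibitory receptors and −0.18 for the other 3.

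**Figure D2:**
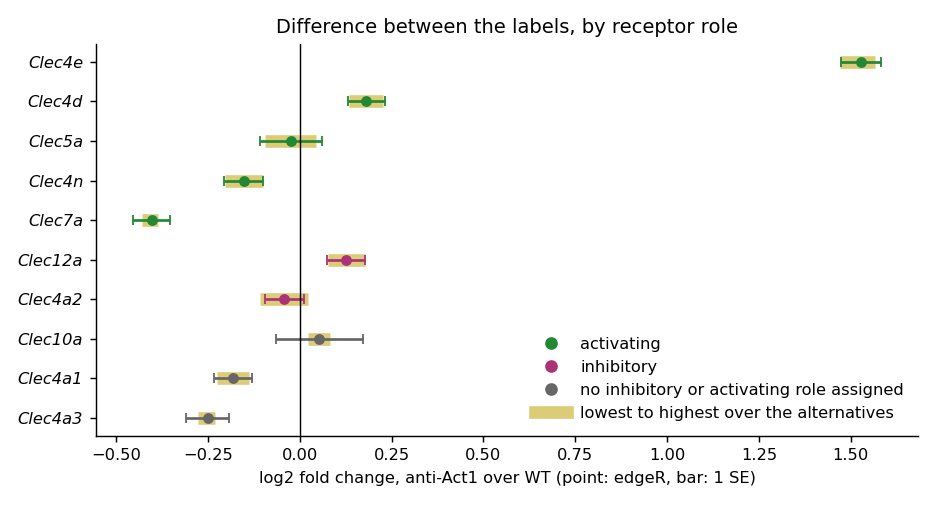
Log2 fold change of each member, anti-Act1 over WT, with points from edgeR, bars of 1 SE and shaded bands from the lowest to the highest of 13 other settings; colours give the role. Clec4e stands alone at 1.53, Clec7a is the lowest at −0.40, and the other 8 lie between −0.25 and 0.18.

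The summed FPKM of the 5 activating receptors was 1390 and 1335 in the WT libraries and 1456 and 1465 in the anti-Act1 libraries, without overlap. Without Clec4d the sum was 355 and 360 in WT and 349 and 334 in anti-Act1, lower in both. The summed FPKM of the 5 activating receptors divided by that of the 2 inhibitory receptors was 5.96 and 5.61 in the WT libraries and 5.78 and 6.38 in the anti-Act1 libraries. These ratios overlapped. With Clec4d left out of the sum the ratio was 1.52 and 1.51 in WT and 1.39 and 1.45 in anti-Act1, which were lower. Clec4e made up 1.51 and 1.63% of the summed FPKM of all members in WT and 4.39 and 4.13% in anti-Act1, which restates the rise that chose the set.

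Most of the members lie in 2 gene clusters on chromosome 6, where their neighbours could be set beside them. In the Clec4 cluster the order runs Foxj2, C3ar1, Necap1, Clec4a1, Clec4a3, Clec4a4, Clec4b1, Clec4a2, Clec4b2, Clec4n, Clec4d, Clec4e. Clec4e lies at the end of this row, next to the vomeronasal receptor genes Vmn2r19 and Vmn2r20, which were at 0 counts in all libraries. The neighbouring pair differed by 1.53 (Clec4e) and 0.18 (Clec4d) on the log2 scale, and Clec4n, the next, by −0.15. At the other end the complement receptor gene C3ar1 had a mean of 1932 CPM in WT and 1931 CPM in anti-Act1, a log2 fold change of −0.00 ± 0.05 (SE), and Foxj2 had −0.06 ± 0.06 (SE). Necap1, next to Clec4a1, was higher at 0.16 ± 0.06 (SE), with a mean of 69.6 CPM in WT and 77.7 CPM in anti-Act1. It lost the call when any 1 of the 4 libraries was left out (0.14 to 0.17), with DESeq2, limma or the replicate block, and without composition normalization. Clec4a4 (34 to 48 counts in 3 libraries and 19 in the other) and Clec4b1 (4 to 51 counts) were close to the limit of detection and did not pass the test, except that Clec4b1 passed as lower without anti-Act1 replicate 2 (−2.92). Clec4b2, with 0 to 4 counts, had too few to test. The Clec4a and Clec4b genes are similar copies, so reads that fit more than 1 of them could have been split or dropped by the counting, and their values are uncertain in that respect.

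In the other cluster the order runs Cd69, Clec2m (not analysed here), Clec12a, Clec12b, Clec1b, Clec9a, Clec1a, Clec7a, Olr1, Tmem52b, Gabarapl1. Clec7a and Olr1, the gene for the oxidized LDL receptor LOX-1, are neighbours and differed in opposite directions, although Olr1 had only 6 and 14 counts in WT and 41 and 33 counts in anti-Act1. Clec1b, Clec9a and Clec1a, between Clec12a and Clec7a, had at most 171 counts in a library and did not pass the test. Gabarapl1, an abundant gene at the far side of Clec7a, had a log2 fold change of 0.10 ± 0.05 (SE) and did not pass either.

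**Figure D3:**
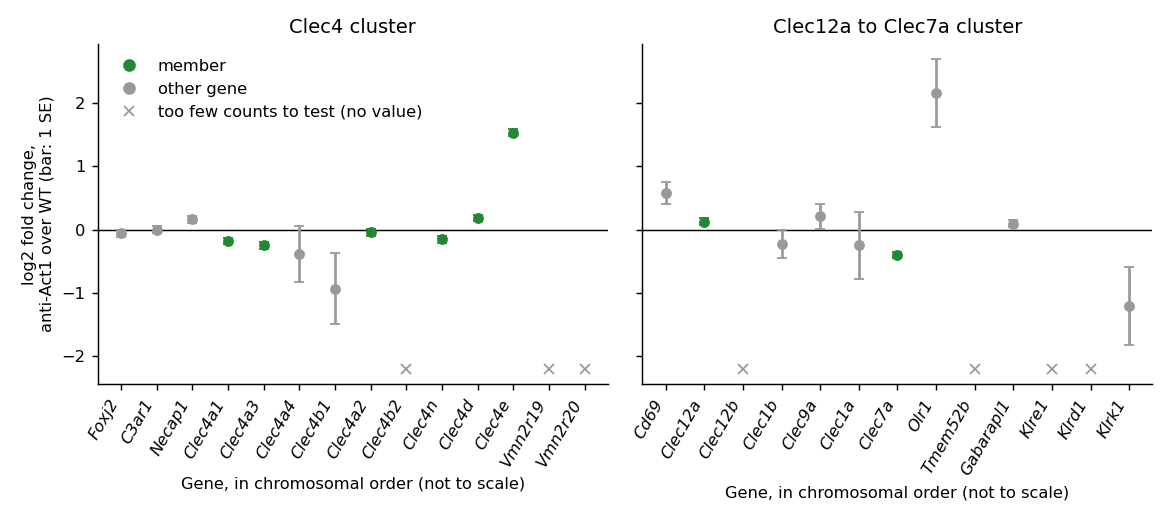
Log2 fold change, anti-Act1 over WT, of the genes in the Clec4 cluster (left) and the Clec12a to Clec7a cluster (right) in chromosomal order and not to scale, with bars of 1 SE from edgeR. Members are green, other genes grey, and crosses at the foot mark genes with too few counts to test; in the left panel Clec4e is at 1.53 beside Clec4d at 0.18, and in the right panel Clec7a at −0.40 lies beside Olr1 at 2.15.

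The adaptors and kinase that the activating receptors share did not pass the test. FcRγ (Fcer1g), the signalling chain of Mincle, MCL and Dectin-2, had 527 and 488 CPM in WT and 498 and 491 CPM in anti-Act1, and the groups overlapped. Its log2 fold change was −0.04 ± 0.05 (SE), at an edgeR adjusted p of 0.693, and it turned to 0.02 without WT replicate 1. DAP12 (Tyrobp), the chain of MDL-1, had 696 and 621 CPM against 652 and 629 CPM, again with overlap, and −0.04 ± 0.05 (SE), at an edgeR adjusted p of 0.659, which turned to 0.04 without WT replicate 1. Syk had 623 and 616 CPM against 605 and 610 CPM, close to each other but without overlap, with −0.03 ± 0.05 (SE), at an edgeR adjusted p of 0.745. DAP10 (Hcst) had 14.1 and 14.5 CPM against 15.6 and 16.3 CPM, higher in both anti-Act1 libraries, with 0.16 ± 0.09 (SE), at an edgeR adjusted p of 0.213.

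Of 20 genes of the activating chain, all of which were tested, 3 were higher, 5 were lower and 12 did not pass, beside 10.9% and 9.76% of all genes tested called higher and lower. The median was −0.04, against −0.00 over all genes tested. The 3 higher genes were the kinases Src (log2 fold change 0.48, edgeR adjusted p = 4.17e-08) and Fgr (0.36, adjusted p = 0.00163) and the protease Malt1 (0.36, adjusted p = 1.77e-05), which works with Card9. They stayed past the threshold in every setting run. The lower genes were the kinase Fyn (−0.35), the exchange factor Vav3 (−0.23), the PI3-kinase subunit Pik3cd (−0.18), Card9 (−0.18) and the adaptor Sh3bp2 (−0.17), with edgeR adjusted p from 0.00123 to 0.0437. Lower calls were lost when a library was left out, which leaves 1 library in its group. The part of a larger SE and of a changed estimate in these losses was not tested. Sh3bp2 had −0.17 ± 0.05 (SE) in the main fit and −0.18 ± 0.08 (SE) without anti-Act1 replicate 2. Pik3cd had −0.18 in the main fit and −0.10 without anti-Act1 replicate 1. Without anti-Act1 replicate 1 only Vav3 remained among the 5 (Pik3cd then had −0.10, Fyn −0.30, Card9 −0.20 and Sh3bp2 −0.15), and without anti-Act1 replicate 2 only Fyn and Pik3cd did (Vav3 then had −0.20, Card9 −0.15 and Sh3bp2 −0.18). Card9 was also lost without WT replicate 1 (−0.10), with DESeq2, with limma and with the replicate block (adjusted p = 0.0568, against 0.00533 to 0.403 over the settings), and Sh3bp2 without WT replicate 2 (−0.14). Without WT replicate 1 the lower genes numbered 6, since Pik3r1 and Plcg2 then passed.

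The inhibitory chain was listed as 11 genes. Some of them, such as Csk, Cbl and Sla, are general negative regulators and not particular to these receptors. Of the 11, 1 was higher, 6 were lower and 4 did not pass, beside 10.9% of all genes tested called higher and 9.76% called lower. The number lower was 4 without anti-Act1 replicate 1 or without anti-Act1 replicate 2. The median was −0.15, against −0.00 over all genes tested. SHP-1 (Ptpn6) had 174 and 164 CPM in WT and 134 and 142 CPM in anti-Act1. Both anti-Act1 libraries were below both WT libraries, with a log2 fold change of −0.29 ± 0.05 (SE), at an edgeR adjusted p of 2.97e-05. The Src-like adaptor Sla, which damps receptor signalling, had 22.5 and 23.2 CPM in WT and 12.6 and 15.3 CPM in anti-Act1, the largest difference of this list at −0.71 ± 0.09 (SE), at an edgeR adjusted p of 6.95e-09. The adaptor Dok2 (−0.36) and the kinase Csk (−0.22), which restrains Src-family kinases, were lower as well. These 4 genes stayed lower in every setting run. SHP-2 (Ptpn11) had 125 and 123 CPM against 130 and 130 CPM and did not pass (0.07, edgeR adjusted p = 0.352).

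The weaker calls of that list were the lipid phosphatase SHIP-1 (Inpp5d, −0.15), the adaptor Dok1 (−0.18) and the ubiquitin ligase Cblb (0.18, the higher gene). Inpp5d was lost without WT replicate 2 (−0.12), anti-Act1 replicate 1 (−0.13) or anti-Act1 replicate 2 (−0.16), and with the replicate block (adjusted p = 0.0640, against 0.0128 to 0.248 over the settings). Dok1 was lost without WT replicate 1 (−0.17), anti-Act1 replicate 1 (−0.19) or anti-Act1 replicate 2 (−0.17). Cblb was lost without WT replicate 1 (0.12), anti-Act1 replicate 1 (0.18) or anti-Act1 replicate 2 (0.18) and with limma. Pag1, a membrane anchor for Csk, passed as lower without WT replicate 1, which left the number of lower genes at 6.

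Other genes with a C-type lectin domain were set beside the members. Of 37 such genes 19 had enough counts to test and 7 were at 0 in all libraries. Of those tested 5 were higher and 4 were lower, beside the same shares of all genes, 10.9% and 9.76%. The median was −0.25, against −0.00 over all genes tested. This is the value of Clec1a, which had 7 to 38 counts per library, overlapping groups and an SE of 0.53. The median therefore rests on a gene with few counts. Cd207 was the lowest with its fitted value or with its fold against the floor of 3 counts, so that choice could not change the median. The mannose receptor Mrc1 had 399 and 422 CPM in WT and 265 and 265 CPM in anti-Act1, with no overlap and a log2 fold change of −0.63 ± 0.05 (SE), at an edgeR adjusted p of 5.57e-14. Cd93 (−0.46), a receptor linked to uptake of dying cells, and Cd72 (−0.40), an inhibitory coreceptor, were lower too. Cd302 had 51.7 and 49.2 CPM in WT and 71.2 and 73.8 CPM in anti-Act1, and the scavenger receptor Colec12 had 53.2 and 51.1 CPM against 87.9 and 85.8 CPM. Both were higher in both anti-Act1 libraries, by 0.52 ± 0.06 and 0.74 ± 0.06 (SE). Ly75 (DEC-205), an endocytic receptor best known on dendritic cells, had 2.99 and 2.48 CPM in WT and 5.83 and 7.07 CPM in anti-Act1, a log2 fold change of 1.24 ± 0.16 (SE), at an edgeR adjusted p of 2.04e-08. The dendritic cell markers summed to 5.59 and 4.60 CPM in WT and 4.58 and 5.31 CPM in anti-Act1. The part of other cells in this difference was not tested.

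At lower counts, Olr1 was higher (2.15 ± 0.54 SE, edgeR adjusted p = 0.00220) and lost the call without WT replicate 1 (1.77). Cd69, an activation marker, was higher (0.58 ± 0.17, SE) and lost it without WT replicate 1 (0.55), without anti-Act1 replicate 1 (0.57) and with DESeq2. Langerin (Cd207) had 13 and 23 counts in WT and at most 2 in the anti-Act1 libraries, 4.87-fold lower against a floor of 3 counts per library. Low counts were even in excess, so this floor may be too low and the fold is not a firm bound. Cd207 lost the call without WT replicate 2 or anti-Act1 replicate 2. Clec9a, a receptor of dendritic cells for exposed actin, had 2.35 and 2.12 CPM against 2.46 and 2.71 CPM and did not pass. Mgl2, the close relative of Clec10a, had too few counts to test.

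**Figure D4:**
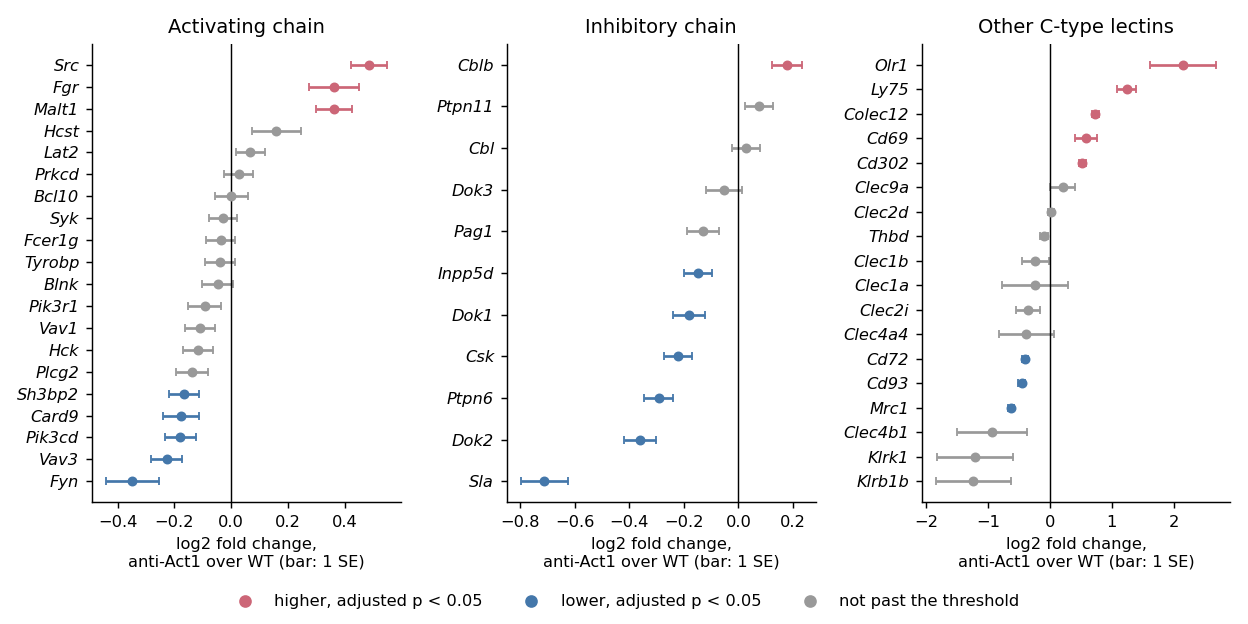
Log2 fold change, anti-Act1 over WT, with bars of 1 SE from edgeR, for the activating chain (left), the inhibitory chain (middle) and the other C-type lectin genes that were tested, without Cd207 (right); each panel has its own axis. Red points passed an adjusted p of 0.05 as higher, blue points as lower, and grey points did not pass; Src (0.48) and Olr1 (2.15) head their panels and Sla (−0.71) is the lowest of the inhibitory chain.

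Genes for proteins of the host that are reported to bind these receptors were detected in all libraries. The reported ligand of Mincle, spliceosome-associated protein 130, is encoded by Sf3b3, which was added after the data were seen. Sf3b3 had 94.1 and 95.2 CPM in WT and 81.5 and 88.2 CPM in anti-Act1. Both anti-Act1 libraries were below both WT libraries, with a log2 fold change of −0.16 ± 0.06 (SE) and an edgeR adjusted p of 0.0358. That call was lost without WT replicate 2 (−0.15), without anti-Act1 replicate 1 (−0.10), with DESeq2 and with the replicate block. The gene with the symbol Sap130, which had been listed for its name, encodes an unrelated Sin3A-associated protein and is no ligand. It had a log2 fold change of 0.04 ± 0.06 (SE) and turned to −0.04 without anti-Act1 replicate 2. Galectin-9 (Lgals9), reported to bind Dectin-1, had 194 and 190 CPM in WT and 213 and 221 CPM in anti-Act1, and was higher by 0.18 ± 0.05 (SE), at an edgeR adjusted p of 0.00934. That call was lost without anti-Act1 replicate 2 (0.15). Of the annexins reported to bind Dectin-1, Anxa5 did not pass (0.03), and Anxa1, named after its value was seen, was lower (−0.14, edgeR adjusted p = 0.0427) and lost the call with the replicate block and in 3 of the 4 fits that left out a library, the exception being the fit without WT replicate 2.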

How the data were processed

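RNA of cocultured macrophages was sequenced from 2 WT and 2 anti-Act1 cultures, as labelled. The authors removed low-quality reads, aligned read pairs with TopHat and deposited whole counts of reads per gene, not normalized. They also deposited FPKM values. For 11623 of 11623 genes checked, the gene length implied by count, FPKM and column total differed by less than 1% between the libraries. The lengths themselves were not checked against an annotation. The submitters' processing notes list Bowtie 0.12.2 and HTSeq 0.6.1 and the builds mm8 and mm10 without a role. The annotation and the strand setting are not given in the sources used here. The labels give 48 h of coculture and a legend of the paper a shorter time.

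The counts were fitted with edgeR 4.0.16 in R 4.3.3 (TMM, filterByExpr, glmQLFit and glmQLFTest on condition, two-sided, Benjamini-Hochberg over 12494 genes). The SE printed with a log2 fold change is its absolute value divided by the square root of the quasi-likelihood F. It rests on a dispersion moderated across genes and is not the spread of the 2 libraries of a label. The design was edgeR, where the paper's methods name DESeq2, which was an alternative (1.42.0). The other alternatives were DESeq2 size factors, no composition normalization, no filter on low counts, a replicate block and a filter of 10 counts in every library. Further ones were limma 3.58.1 on log2(FPKM + 1) and log2(FPKM + 0.1) for genes with at least 1 FPKM in 2 libraries, and each library left out in turn. A fit without a library has 1 library in that group, so a call lost there may come from the larger SE and need not mean a changed estimate. Counts divided by 2 were added after seeing the data, because 66.4 to 68.2% of counts from 1 to 20 were even. The fit was tested on simulated data. The floor of a count of 0 was 3 counts, 0.0395 to 0.0549 CPM, and covers counting error only.

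The members, gene lists and tests were chosen with earlier results of these data known. Genes were named by a rule: the members, Traf3ip2, listed adaptors, phosphatases, relatives and ligands, and in each list the 5 largest rises and falls past the threshold with no overlap between groups. Markers, cluster neighbours, Y-linked genes, annexins and Sf3b3 are named as context. Promoter windows come from RefSeq (GRCm38.p6).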

Additional observations from a re-analysis of the deposited data

How the results depend on the processing

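With limma on either FPKM scale 1 member was called higher, Clec4d being lost, and 0 genes of the inhibitory chain were. With 1 library left out, members called higher ranged from 1 to 2 and lower from 2 to 3, activating chain genes called lower from 1 to 6, inhibitory chain genes called higher from 0 to 1, and other C-type lectins called higher from 3 to 5. Over the same fits signs turned, among the genes named, for Clec5a (−0.0939 to 0.0433) and Clec4a2 (−0.107 to 0.0235) without anti-Act1 replicate 2, for Fcer1g (−0.0913 to 0.0198), Tyrobp (−0.121 to 0.0427) and Clec4a4 (−0.759 to 0.0116), each of these 3 without WT replicate 1, and for Sap130 (−0.0388 to 0.124), without anti-Act1 replicate 2. The deviations of same-numbered libraries from their group means had a Pearson r of −0.03 across genes. With 2 libraries per group this is 1 correlation, and whether the cultures were prepared in pairs is not given. The replicate block gave 2406 calls over all genes against 2586, with 2 members higher and 3 lower. That block ended the calls of Clec4n, Card9, Inpp5d, Anxa1, Cd14, Sf3b3 and Necap1, and of no other gene in the lists. DESeq2 called 1979 genes. Without anti-Act1 replicate 1 or 2 the calls over all genes were 1712 and 1671. Genes with few counts, such as Olr1, Cd207 and Clec4b1, are limited by depth, and the excess of even counts means their counting error may be larger than the counts imply.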
